A study of Rattus norvegicus with 6 samples.

Results

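The branched-chain amino acids leucine, isoleucine and valine are broken down in mitochondria. The transaminase BCAT2 first removes the amino group, and the branched-chain ketoacid dehydrogenase complex (BCKDH) then oxidises the resulting ketoacids in the step that commits them to breakdown. BCKDH is built from E1 alpha, E1 beta, E2 and E3 subunits. The kinase BCKDK phosphorylates E1 alpha and switches the complex off, and the phosphatase PPM1K removes the phosphate and switches it on. Heart muscle expresses the whole pathway. Separate enzymes then carry the leucine, isoleucine and valine branches towards the citric acid cycle and ketone bodies.

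Expression of 10 genes of this pathway was examined in rat myocardium. They were chosen by gene name and role, with earlier results of these data known: Bcat2, the BCKDH subunit genes Bckdha, Bckdhb and Dbt, the regulators Bckdk and Ppm1k, the leucine branch genes Ivd, Mccc1 and Mccc2, and the valine branch gene Hibch. All 10 were among the 32883 genes of the deposited table, each on 1 line. The RNA came from 3 myocardial samples of diet-induced obesity-prone (OP) rats fed a high-fat diet for 12 months and 3 of obesity-resistant (OR) rats fed standard chow for 12 months. Both are selectively bred lines on a Sprague Dawley background, and both were put on the protocol as young animals shortly after weaning. Each sample came from a different, randomly picked rat of its group, according to the study, and is called a heart here. Line and diet changed together, so their effects cannot be told apart.

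Levels are given in CPM (reads of a gene in a library set to a total of 20000000, divided by 20), as mean ± SD over 3 hearts. Differences are log2 fold changes (log2FC) of OP over OR hearts with their standard error (SE). The log2FCs, and the percent changes taken from them, were computed on log2 levels after a further scaling between libraries (TMM). The CPM levels and the overlaps between groups were not rescaled, so ratios of the CPM means can differ somewhat from these changes. A gene was called when its Benjamini-Hochberg adjusted p from limma, fitted to all 13445 genes reaching 1 CPM in 3 or more libraries, was under 0.05. All 10 genes passed this filter, with 729 to 7693 reads behind each value. Across all genes tested 3.37% were called, 1.5% higher and 1.87% lower in OP hearts. The libraries held 10838184 to 12831577 reads assigned to genes. Cardiomyocyte markers (8 genes) summed to 34925 to 36953 CPM in OP hearts and 35247 to 38397 CPM in OR hearts. The first principal component (46.0% of the variance) separated the groups, with OP replicates 1, 2 and 3 at 0.25, 0.69 and 0.18 and OR hearts at -0.43 to -0.34. OP replicate 2 lay farthest from the OR hearts, and values without it are given for the 10 genes and for some of the other pathway genes named.

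Ppm1k, the phosphatase that activates BCKDH, fell in high-fat diet-fed OP rats, and Bckdhb, the E1 beta subunit, rose. The other 8 genes did not pass the adjusted p. The calls therefore made up 20% of the 10 genes (1 higher and 1 lower), against 3.37% of all genes tested, and the same 2 genes alone had an unadjusted p under 0.05, against 22.3% of all genes tested. The median log2 fold change over the 10 genes was -0.11, against 0.00302 over all genes tested, with 4 genes above 0 and 6 below. The 3 OP values lay wholly above or wholly below the 3 OR values in 3 of the 10 genes (Ppm1k, Bckdhb and Mccc2), compared with 28.1% of all genes tested. Of these, 1 lay above (10.4% of all genes) and 2 below (17.7%).

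Ppm1k stood at 78.5, 66.6 and 82.9 CPM in OP replicates 1, 2 and 3, against 127, 139.5 and 147 CPM in OR replicates 1, 2 and 3. Every OP heart was therefore below every OR heart, with a wide gap between the groups. The means were 76.0 ± 8.41 CPM in OP hearts and 137.7 ± 10.3 CPM in OR hearts, for a log2FC of -0.81 (SE 0.10, limma adjusted p = 0.0067), so that expression fell by 42.9%. The 95% interval of the log2FC was -1.03 to -0.59. By unadjusted p, Ppm1k ranked 49 among the 13445 genes. The call was kept whichever library was left out, with adjusted p values of 0.00332 to 0.0459 from limma and log2FCs of -0.88 to -0.74.

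Bckdk, the kinase that opposes PPM1K, stood at 286, 201 and 294 CPM in OP replicates 1, 2 and 3, against 262, 233 and 229.7 CPM in OR hearts. OP replicate 2 was the lowest of all 6 hearts and the remaining OP hearts were the highest, so the groups overlapped. The log2FC of 0.14 (SE 0.13, 95% interval -0.16 to 0.43) did not pass (limma adjusted p = 0.56). Without OP replicate 2 it was 0.29 and passed narrowly (limma adjusted p = 0.0495).

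The number of Bckdk reads per Ppm1k read within each library does not depend on the scaling between libraries. It was 3.64, 3.02 and 3.55 in OP hearts, against 2.07, 1.67 and 1.56 in OR hearts. The kinase-to-phosphatase ratio was thus higher in every OP heart, at 3.40 ± 0.33 in OP hearts and 1.77 ± 0.27 in OR hearts, a 1.92-fold difference in means. An exact two-sided permutation test over the hearts gave p = 0.1, the smallest p that 3 against 3 allows. This ratio was formed after the values of both genes had been seen and rests mostly on Ppm1k, so it adds no independent evidence. Transcript ratios do not measure the phosphorylation of the complex.

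**Figure D1:**
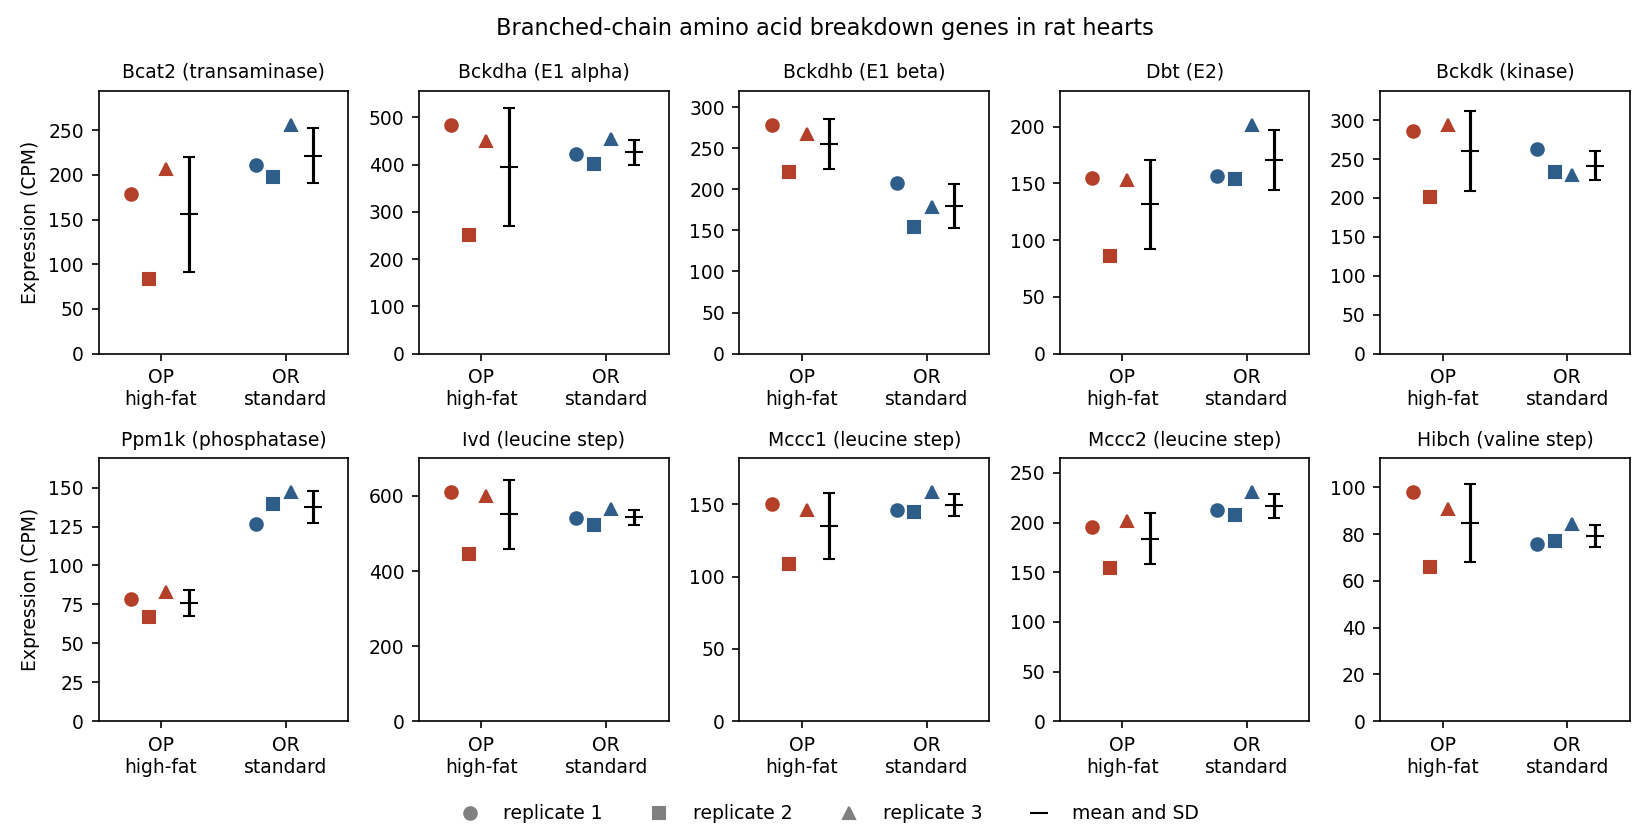
Expression in CPM (linear axes from 0) of the 10 genes in each library, OP high-fat hearts in red and OR standard hearts in blue, with 1 symbol shape per replicate number and black bars for mean and SD. The groups are separated for Ppm1k, Bckdhb and Mccc2, and OP replicate 2 (square) is the lowest OP value in all 10 genes.

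Of the 3 subunit genes particular to BCKDH, Bckdhb was called, and Bckdha and Dbt were not. Bckdhb encodes E1 beta, which forms the decarboxylating E1 unit with E1 alpha. It stood at 278.5, 221 and 267 CPM in OP replicates 1, 2 and 3, against 207.7 and 178.4 CPM in OR replicates 1 and 3, with OR replicate 2 the lowest of all 6 hearts. The lowest OP heart lay just above the highest OR heart. The means were 255 ± 30.7 CPM in OP hearts and 180.0 ± 26.9 CPM in OR hearts, for a log2FC of 0.56 (SE 0.12, 95% interval 0.28 to 0.83, limma adjusted p = 0.0489), a rise of 47.2%. This call sat at the threshold: voom gave an adjusted p of 0.0533, and leaving out any library but OP replicate 2 gave 0.0849 to 0.181 from limma. Without OP replicate 2 the log2FC was 0.64 (limma adjusted p = 0.0179).

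Bckdha, encoding the E1 alpha subunit that BCKDK and PPM1K act on, stood at 484, 251 and 449 CPM in OP replicates 1, 2 and 3, against 423, 401 and 454 CPM in OR hearts. OP replicate 2 was far below the other 5 hearts, which overlapped. The log2FC was -0.11 (SE 0.21, 95% interval -0.59 to 0.36, limma adjusted p = 0.78), and it was 0.16 without OP replicate 2 (limma adjusted p = 0.26). Dbt encodes the E2 core, which carries the lipoyl group and transfers the acyl product to coenzyme A. It stood at 155, 86.4 and 153 CPM in OP hearts, against 156.3, 154.3 and 201.7 CPM in OR hearts, for a log2FC of -0.36 (SE 0.21, 95% interval -0.85 to 0.12, limma adjusted p = 0.35). OP replicate 2 was again the lowest, and without it the difference was -0.11. Dld, the E3 subunit that BCKDH shares with the pyruvate and 2-oxoglutarate dehydrogenases, had a log2FC of 0.08 ± 0.08 (SE, limma adjusted p = 0.58).

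Within a library, the reads of Bckdhb per read of Bckdha were 0.575, 0.878 and 0.595 in OP hearts, against 0.491, 0.384 and 0.393 in OR hearts. The reads of Dbt per read of Bckdhb were 0.557, 0.392 and 0.572 in OP hearts, against 0.753, 1.00 and 1.13 in OR hearts. The groups did not overlap in either ratio. Both ratios hold Bckdhb, which had been seen to be called, so they restate its difference and add no independent evidence. Each of 5 such ratios, formed after the values had been seen, gave the smallest possible p of 0.1 in the exact permutation test, and 0.1 after adjustment over the 5. Gene length was not taken into account, so a ratio within one library says nothing of the number of subunits made.

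**Figure D2:**
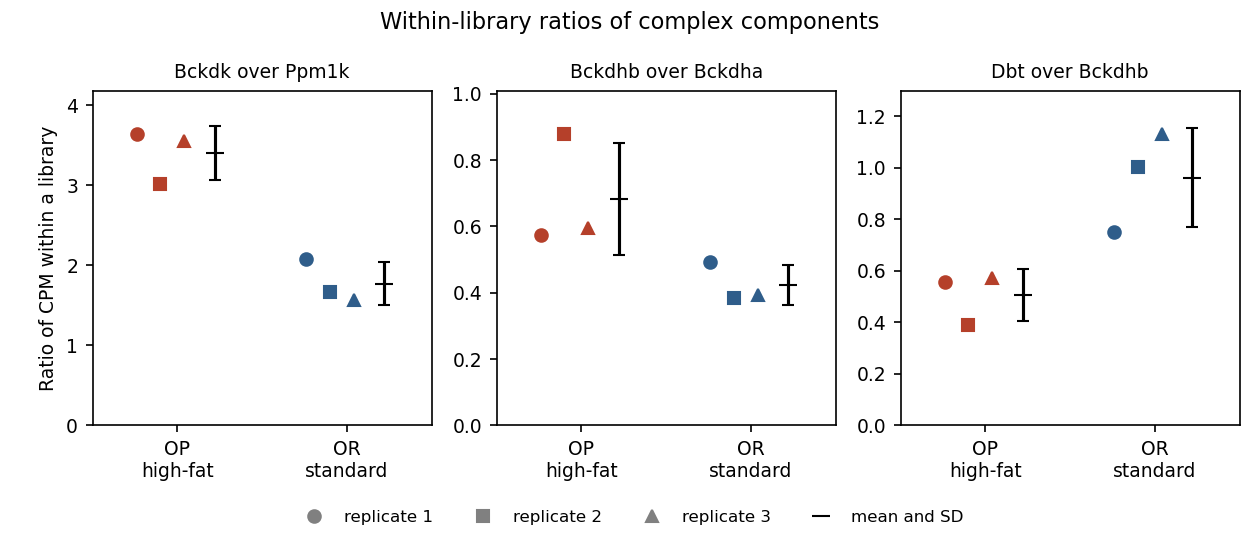
Ratio of CPM between pairs of genes within each library (linear axes from 0), for the kinase over the phosphatase (left), E1 beta over E1 alpha (middle) and E2 over E1 beta (right), in OP high-fat hearts (red) and OR standard hearts (blue) with mean and SD in black. In all 3 panels the OP and OR values do not overlap, with means of 3.40 in OP hearts and 1.77 in OR hearts in the left panel.

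To show what the upstream regions of subunit genes whose log2FCs lay on opposite sides of 0 look like, the 250 bases before the annotated start are printed for Bckdhb (chr8:93725027-93725276, plus strand) and Dbt (chr2:207166410-207166659, plus strand), from RefSeq on GRCr8, which is not the build used for the reads. Capitals mark the GC box GGGCGG and the CCAAT box CCAAT on either strand, which do not overlap each other here.
Bckdhb: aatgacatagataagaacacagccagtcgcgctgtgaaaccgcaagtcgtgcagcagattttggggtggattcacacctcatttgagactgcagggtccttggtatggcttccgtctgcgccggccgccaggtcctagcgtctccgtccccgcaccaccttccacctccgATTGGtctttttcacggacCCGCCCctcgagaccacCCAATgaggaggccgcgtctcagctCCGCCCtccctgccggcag
Dbt: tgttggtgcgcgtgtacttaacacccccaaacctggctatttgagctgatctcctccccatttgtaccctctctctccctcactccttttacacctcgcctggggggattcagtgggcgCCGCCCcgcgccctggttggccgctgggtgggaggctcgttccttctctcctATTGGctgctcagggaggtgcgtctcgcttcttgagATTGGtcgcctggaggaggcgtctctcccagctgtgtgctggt
Both windows hold each of these 2 common promoter motifs and have the same GC content of 60.8%. Of the 7 genes matched to an upstream sequence, 6 held a GC box, against 30.5% of 33469 such windows, and 4 held a CCAAT box, against 34.0%. Ppm1k, Bckdha and Mccc2 were not matched. The 33469 windows were not limited to genes expressed in heart or by type of gene, so these shares are not a like comparison. A match describes the letters only and was not tested as a binding site.

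Bcat2, the mitochondrial transaminase that starts the pathway, stood at 178, 83.7 and 206 CPM in OP replicates 1, 2 and 3, against 211, 198 and 256 CPM in OR hearts. OP replicate 2 held less than any other heart, and the remaining hearts overlapped. The log2FC was -0.55 (SE 0.28, 95% interval -1.20 to 0.11, limma adjusted p = 0.30), and it was -0.17 without OP replicate 2. In the GRCr8 annotation Bcat2 overlaps Hsd17b14, which was not analysed here, and a long non-coding RNA gene, and Bckdha overlaps Exosc5, which stood at 16.7 ± 1.97 CPM in OP hearts and 17.0 ± 3.03 CPM in OR hearts. No source used here states the strand setting of the counting, and reads of overlapping genes cannot be told apart.

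In the leucine branch, Ivd encodes isovaleryl-CoA dehydrogenase, and Mccc1 and Mccc2 encode the 2 subunits of the biotin-dependent methylcrotonyl-CoA carboxylase. None of these genes passed. Mccc2 came nearest: it stood at 196, 155 and 201 CPM in OP hearts, against 213, 207 and 230.4 CPM in OR hearts. Every OP heart was below every OR heart, but with a small difference (log2FC -0.20, SE 0.10, 95% interval -0.43 to 0.03, limma adjusted p = 0.29). Without OP replicate 2 the log2FC of Mccc2 was -0.10. Its partner Mccc1 averaged 135 ± 23.1 CPM in OP hearts and 149.7 ± 7.53 CPM in OR hearts, for a log2FC of -0.11 (SE 0.12, limma adjusted p = 0.60). Ivd averaged 552 ± 91.8 CPM in OP hearts and 544 ± 20.1 CPM in OR hearts, for a log2FC of 0.06 (SE 0.11, limma adjusted p = 0.80). Without OP replicate 2 the log2FC of Mccc1 was 0.01 and that of Ivd 0.18, and without OP replicate 1 that of Ivd was -0.02, so neither has a direction in these data.

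In the valine branch, Hibch encodes the hydrolase that frees 3-hydroxyisobutyrate from coenzyme A. It averaged 84.8 ± 16.8 CPM in OP hearts and 79.1 ± 4.62 CPM in OR hearts, for a log2FC of 0.13 (SE 0.13, 95% interval -0.17 to 0.43, limma adjusted p = 0.59). OP replicates 1 and 3 stood at 97.9 and 90.7 CPM, above all OR hearts, and OP replicate 2 at 66.0 CPM, below all of them. Without OP replicate 2 the log2FC was 0.28 and still did not pass (limma adjusted p = 0.0944).

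OP replicate 2 was the lowest OP heart in all 10 genes, against 49.4% of all genes tested. It was the lowest of the 6 hearts in 9 of the 10, against 36.5% of all genes tested. Its levels were 43.5% (Bcat2) to 82.6% (Ppm1k) of the mean of the other OP hearts, with a median of 71.5% over the 10 genes and 94.3% over all genes tested. The lowest shares were those of Bcat2, Bckdha (53.8%) and Dbt (56.1%). Summed over the 10 genes it held 1685 CPM, against 2514 and 2491 CPM in OP replicates 1 and 3 and 2364, 2232 and 2504 CPM in OR hearts. In the same comparison the median was 84.6% over 15 genes of other steps of branched-chain amino acid breakdown, of which 10 were lowest in OP replicate 2, and 90.4% over 15 genes of the citric acid cycle. The 5 endothelial markers had a median of 74.1% but ranged from 53.0% to 147%, and Vwf was higher in OP replicate 2 than in any other heart. The medians of the 3 tested adipocyte markers (69.6%) and the 4 tested T cell markers (72.8%) were also low. These differences between lists were not tested.

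The same library had the highest sum of fibroblast markers, with 3905 CPM summed over 5 genes, against 2061 and 1985 CPM in OP replicates 1 and 3 and 2259 to 2425 CPM in OR hearts. The excess lay in the collagen genes. Col1a1 stood at 883 CPM in OP replicate 2, against 269 to 311 CPM in the other 5 hearts, and Col3a1 at 2075 CPM, against 798 to 1029 CPM. Dcn (680 CPM), Lum (157 CPM) and Pdgfra (110 CPM) were within the range of the other 5 hearts. Its cardiomyocyte marker sum was not low: 35757 CPM over 8 genes, against 34925 and 36953 CPM in OP replicates 1 and 3 and 35247 to 38397 CPM in OR hearts. Of these 8 genes, 2 were nonetheless lowest in this library. Ryr2 stood at 1091 CPM, against 1448 to 2102 CPM in the other 5 hearts, and Myh6 at 13639 CPM, against 13768 to 16725 CPM. The median of the 8 was 105% of the mean of the other OP hearts. In tissue RNA, fewer cells of a type and less RNA per cell cannot be told apart. The part of fibroblasts in the low values of this library was not tested.

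**Figure D3:**
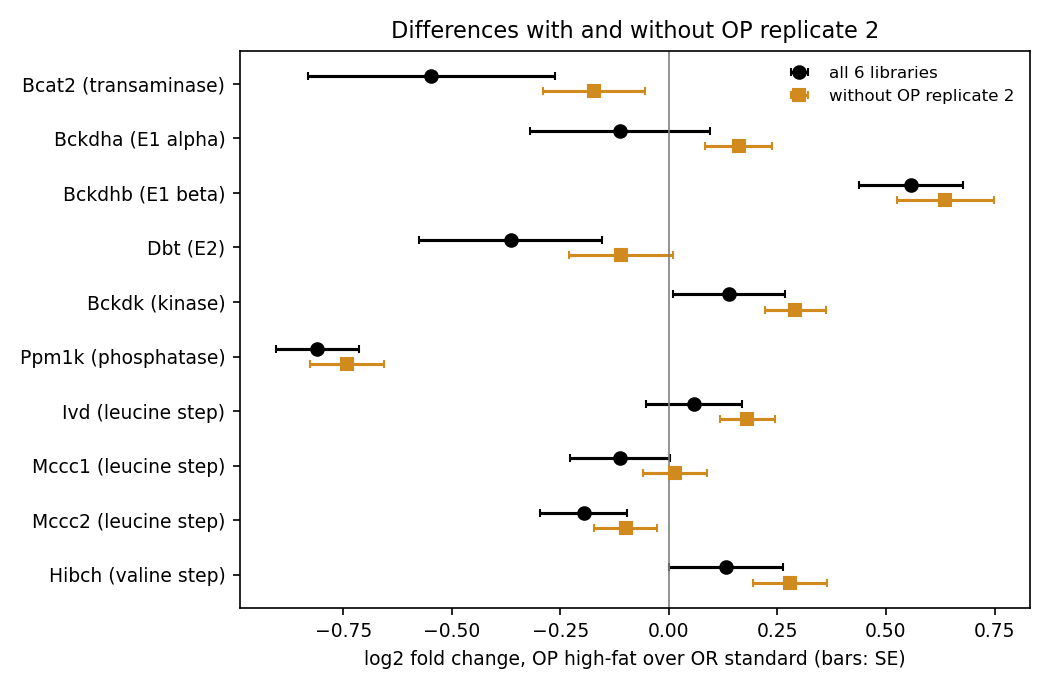
Log2 fold change of OP high-fat over OR standard hearts with SE for each of the 10 genes, with all 6 libraries (black circles) and without OP replicate 2 (orange squares). Ppm1k stays far below 0 (-0.81 and -0.74) and Bckdhb above 0 (0.56 and 0.64), while Bckdha moves across 0 (-0.11 and 0.16).

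Other marker sums also differed between the groups. Summed endothelial markers stood at 983 to 1167 CPM in OP hearts, against 731 to 930 CPM in OR hearts (5 genes). Only Vwf did not overlap between the groups, and Cldn5 averaged 35.8 CPM in OP hearts and 47.6 CPM in OR hearts, with none of the 5 genes called. Smooth muscle and pericyte markers stood at 684 to 889 CPM in OP hearts, against 589 to 655 CPM in OR hearts (6 genes), and Schwann cell markers at 113 to 177 CPM in OP hearts, against 96.8 to 106 CPM in OR hearts (6 genes). The OP and OR hearts did not overlap in any of these 3 sums, while they overlapped in the cardiomyocyte sum. Adipocytes also break down branched-chain amino acids. Their defining markers were near 0: Adipoq stood at 0.3, 2.3 and 3.05 CPM in OP hearts, against 0, 0.6 and 0.1 CPM in OR hearts, and Plin1, Cidec, Lep and Ucp1 at no more than 1.35 CPM in any heart. The adipocyte sum of 557 to 595 CPM in OP hearts, against 416 to 508 CPM in OR hearts (8 genes), was nearly all Fabp4, which endothelial cells also express. Pnpla3 and Cfd of the same list went the other way. Pnpla3 averaged 11.6 CPM in OP hearts and 18.9 CPM in OR hearts, and Cfd 9.17 and 10.3 CPM. The groups overlapped in both and neither was called. The part of these cell types in the levels of Ppm1k and Bckdhb was not tested.

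Neighbouring genes were read around both called members, by the order of genes in GRCr8, after the calls had been seen. Of the 6 tested genes nearest to Ppm1k, 3 on each side, 3 were called, against 3.37% of all genes tested and 0 of the 6 nearest to Bckdhb, where limma and voom called none and none had an unadjusted p under 0.05. Nap1l5, an imprinted gene in mouse and human that lies within Herc3, fell: it stood at 7.3, 4.65 and 10.5 CPM in OP hearts, against 32.3, 37.8 and 31.8 CPM in OR hearts, for a log2FC of -2.17 (SE 0.24, limma adjusted p = 0.00521). The groups were widely separated and the call was kept whichever library was left out. Abcg2, a drug and urate efflux transporter and the nearest tested gene on one side, rose at low levels: 1.85, 2.2 and 1.5 CPM in OP hearts, against 0.65, 0.6 and 0.8 CPM in OR hearts, for a log2FC of 1.25 (SE 0.26, limma adjusted p = 0.0453 and 0.0536 with voom). Only the OP hearts reached 1 CPM, so Abcg2 passed the filter through the group where it was high. Its call therefore lends no support to the count of called neighbours. Pyurf also rose, at 81.2 ± 4.41 CPM in OP hearts and 64.3 ± 1.30 CPM in OR hearts, for a log2FC of 0.38 (SE 0.07, limma adjusted p = 0.0373).

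The neighbours of Ppm1k thus moved in both directions. Herc6, on the other side, was at 12.6 ± 4.98 CPM in OP hearts and 18.3 ± 3.71 CPM in OR hearts, for a log2FC of -0.53 (SE 0.25, limma adjusted p = 0.26), and Herc3 and Lancl2 had log2FCs of -0.16 and 0.06. The calls of Abcg2 and Pyurf were fragile. That of Pyurf was kept in only 1 of the 6 fits without a library (limma adjusted p = 0.0241 to 0.14), and that of Abcg2 was lost in all 3 of the fits that left out a library and still held enough CPM to test it (0.14 to 0.155).

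**Figure D4:**
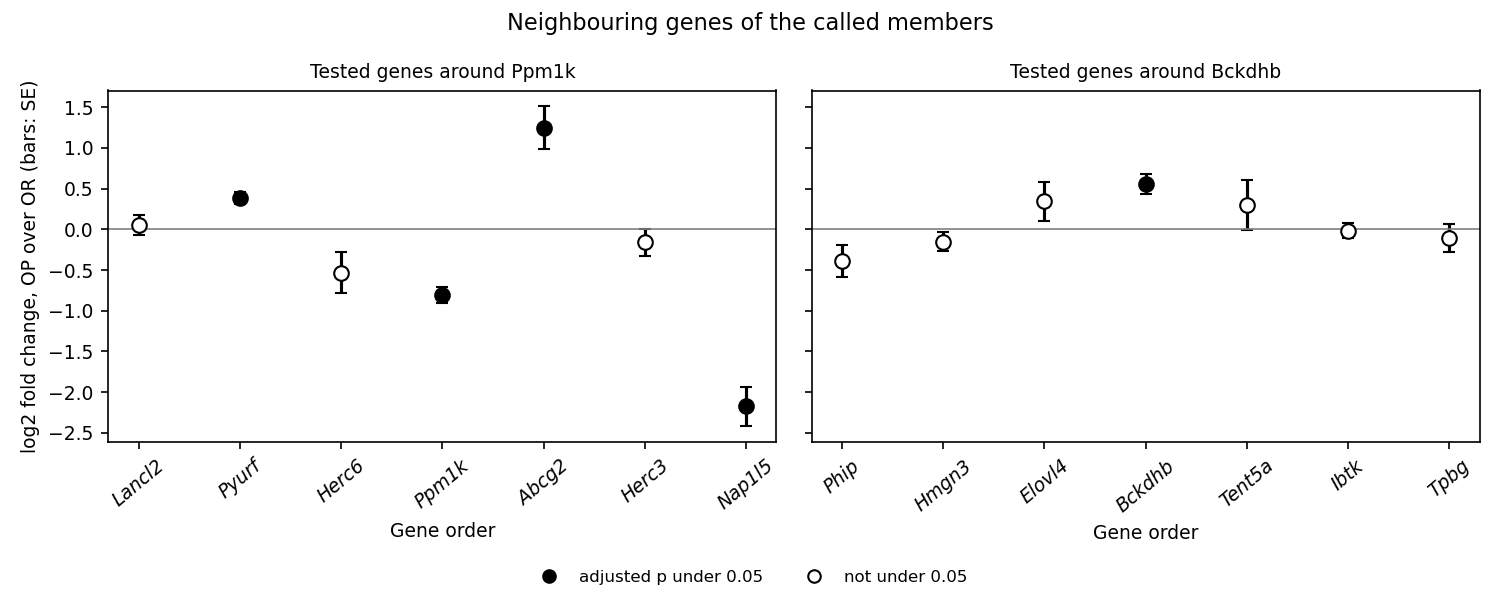
Log2 fold change (OP high-fat over OR standard, with SE) of Ppm1k and Bckdhb and of the 3 nearest tested genes on each side, in gene order; filled circles have an adjusted p under 0.05 from limma. Around Ppm1k, Pyurf (0.38) and Abcg2 (1.25) are higher and Nap1l5 (-2.17) is lower in OP hearts, and around Bckdhb no neighbour was called.

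The remaining genes of branched-chain amino acid use were read from lists of other enzymes, amino acid transporters, and cofactor genes and regulators. Of their 32 tested genes none rose by limma or voom and 2 fell by limma, with a median log2FC of -0.01. Over all genes tested, 1.5% were called higher and 1.87% lower. By unadjusted p under 0.05, 6 of the 32 were higher and 7 lower, against 22.3% of all genes tested in either direction. These lists were chosen with earlier results of these data known. Both called genes of the lists are transcriptional regulators. Ppargc1a, the coactivator of mitochondrial genes, stood at 39.4, 34.5 and 43.2 CPM in OP hearts, against 51.9, 59.2 and 66.3 CPM in OR hearts, for a log2FC of -0.55 (SE 0.12, limma adjusted p = 0.0478). Ppara, the nuclear receptor for fatty acids that acts with it, stood at 30.2, 30.2 and 34.8 CPM in OP hearts, against 41.6, 49.1 and 54.1 CPM in OR hearts, for a log2FC of -0.55 (SE 0.12, limma adjusted p = 0.0489). The groups did not overlap in either gene, but both calls lay at the threshold: voom gave 0.0512 and 0.0529, and leaving out any library but OP replicate 2 gave 0.067 to 0.184 for Ppargc1a and 0.0669 to 0.191 for Ppara.

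Klf15, a transcription factor that drives branched-chain amino acid breakdown in mouse heart, stood at 52.7, 58.9 and 55.5 CPM in OP hearts, against 80.5, 66.7 and 96.9 CPM in OR hearts. Every OP heart was lower, and the difference did not pass (log2FC -0.48, SE 0.14, limma adjusted p = 0.10). Mmaa, which serves the vitamin B12 cofactor of methylmalonyl-CoA mutase, had a log2FC of 0.35 ± 0.12 (SE, limma adjusted p = 0.15).

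Of 15 tested genes of other steps, none passed in either direction, by limma as by voom. An unadjusted p under 0.05 held for 2 higher and 2 lower, against 22.3% of all genes tested. The mutase gene Mmut and the epimerase gene Mcee act in sequence at the end of the valine and isoleucine branches and lay on opposite sides. Mmut averaged 161 ± 31.1 CPM in OP hearts and 225 ± 25.8 CPM in OR hearts, for a log2FC of -0.44 (SE 0.14, limma adjusted p = 0.12), while Mcee averaged 69.3 ± 5.91 CPM in OP hearts and 56.2 ± 5.23 CPM in OR hearts (0.35, SE 0.11, limma adjusted p = 0.11). Neither overlapped between the groups. Acadsb, the dehydrogenase of the isoleucine branch, had a log2FC of -0.58 ± 0.22 (SE, limma adjusted p = 0.18). Without OP replicate 2 the log2FC was -0.30 for Mmut and -0.32 for Acadsb.

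None of 7 transporter genes passed, by limma as by voom (1 higher and 2 lower by unadjusted p, against 22.3% of all genes tested). The largest difference was that of Slc7a8, a carrier of neutral amino acids, at 6.28 ± 3.13 CPM in OP hearts and 11.1 ± 1.81 CPM in OR hearts, for a log2FC of -0.87 (SE 0.33, limma adjusted p = 0.17). Slc7a5, the main leucine carrier of the cell surface, had a log2FC of 0.48 ± 0.31 (SE, limma adjusted p = 0.39), its partner Slc3a2 one of 0.25 ± 0.08 (SE, limma adjusted p = 0.14) and the leucine carrier Slc43a2 one of -0.27 ± 0.11 (SE, limma adjusted p = 0.19). The values of Slc7a5 and Slc7a8 depended on OP replicate 2, where Slc7a5 stood at 18.2 CPM, against 7.5 and 9.45 CPM in OP replicates 1 and 3. Without it the log2FC was 0.09 for Slc7a5 and -0.49 for Slc7a8.

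Pyruvate and 2-oxoglutarate dehydrogenases are built like BCKDH, and the pyruvate complex has its own kinases and phosphatases. Of 12 tested genes of these complexes, none passed, by limma as by voom, and the median log2FC was 0.05. An unadjusted p under 0.05 held for 2 higher and 0 lower, against 22.3% of all genes tested. The pyruvate dehydrogenase kinase Pdk4 averaged 491 ± 86.0 CPM in OP hearts and 366 ± 75.2 CPM in OR hearts, for a log2FC of 0.48 (SE 0.17, limma adjusted p = 0.16), and of 0.32 without OP replicate 2. Pdhb, the E1 beta subunit of that complex, averaged 453 ± 0.98 CPM in OP hearts and 417 ± 4.75 CPM in OR hearts (0.17, SE 0.07, limma adjusted p = 0.19), Pdk3 had a log2FC of -0.34 ± 0.15 (SE, limma adjusted p = 0.23) and Dlst, the E2 subunit of 2-oxoglutarate dehydrogenase, one of 0.20 ± 0.09 (SE, limma adjusted p = 0.25).

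Among 15 genes of the citric acid cycle, 14 had a log2FC above 0, against 6795 of all 13445 genes tested. All 15 were between -0.03 and 0.24, and none passed, by limma as by voom. An unadjusted p under 0.05 held for 3 higher and 0 lower, against 1426 higher and 1575 lower of all genes tested. The median was 0.10. Mdh2, the mitochondrial malate dehydrogenase, was the nearest to passing (0.24, SE 0.08, limma adjusted p = 0.12), ahead of Fh (0.17), Idh3a (0.20) and Idh2 (0.17). Differences this small depend on the scaling between libraries. With no rescaling the log2FC was 0.19 for Mdh2 and 0.12 for Fh, and the median over all genes tested was -0.046. The spread of the 10 branched-chain genes, from -0.81 to 0.56, was wider than that of the cycle. It was not particular to them. The transporters ranged from -0.87 to 0.48, the other steps from -0.58 to 0.49, and the cofactor genes and regulators from -0.55 to 0.35.

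**Figure D5:**
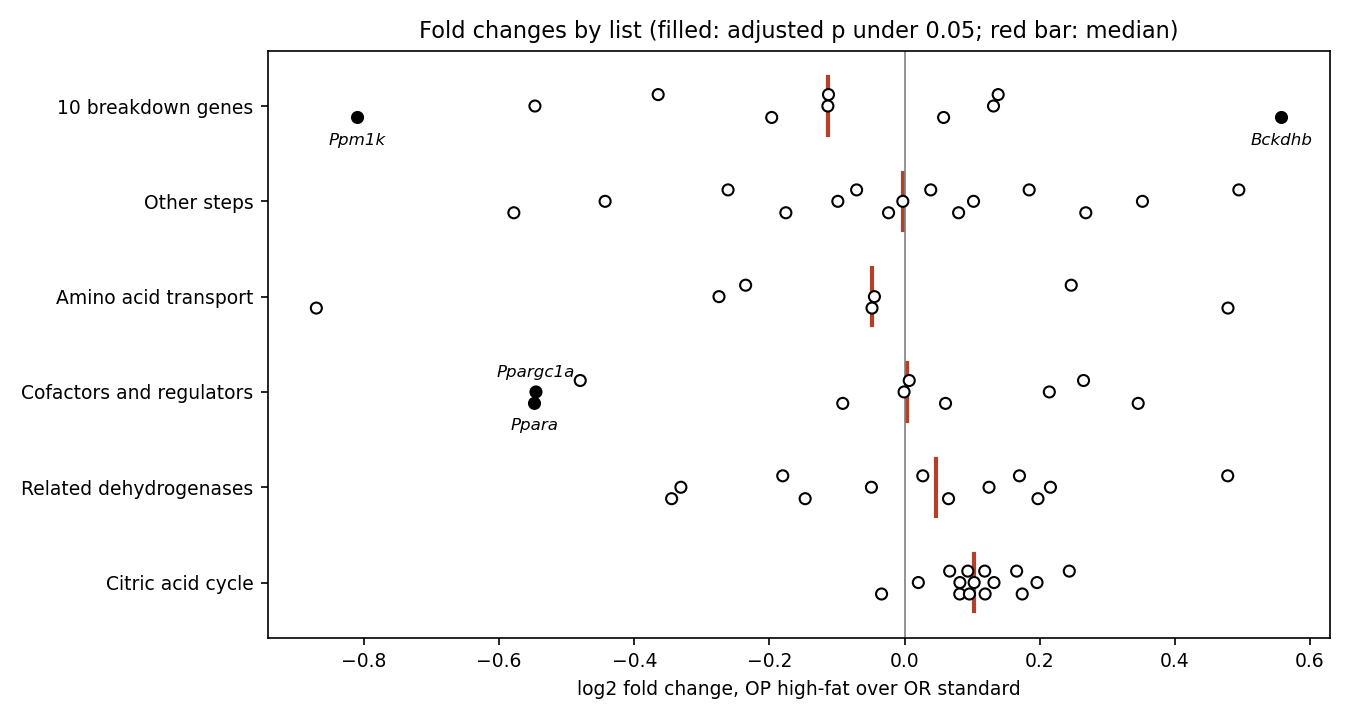
Log2 fold change (OP high-fat over OR standard) of each tested gene in 6 lists, 1 row per list, with filled points for an adjusted p under 0.05 from limma and a red bar at the list's median. Ppm1k (-0.81), Bckdhb (0.56), Ppargc1a (-0.55) and Ppara (-0.55) are the called genes, and the citric acid cycle genes lie close together around 0.10.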

How the data were processed

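Gene expression was measured by RNA sequencing in 6 myocardial samples (3 OP high-fat, 3 OR standard), grouped as labelled. The authors prepared TruSeq libraries, trimmed reads with Trimmomatic, mapped them to Rnor 6.0 with STAR 2.5.3a and counted them per gene with HTSeq 0.9.1 and Ensembl release 103. The deposited values are a score: the authors set each library's gene reads to a total of 20000000 and rounded them up, so they are not raw counts. CPM is this value divided by 20. Whole reads were recovered from the steps between values (99.7% to 99.9% exact, with no tolerance) in Python 3.11.15 (pandas 2.3.3, NumPy 2.4.6). Exact permutation tests used SciPy 1.17.1, and figures matplotlib 3.10.9. Where a symbol stood on several lines, the line with the most reads was used.

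After TMM scaling, with 30% of ratios and 5% of levels trimmed, a pseudocount of 4 (0.2 CPM) was applied before taking log2, and limma 3.58.1 in R 4.3.3 compared the groups using a variance trend. The test covered genes reaching 1 CPM in 3 or more libraries, and p values were adjusted over all of these. The procedure was tested on simulated data. The members and lists were chosen with earlier results of these data known. Genes named are the 10 members, called genes of the other lists and up to 4 genes of each list with the smallest p, plus the 3 genes outside the lists closest to the mean member profile. Overlapping and neighbouring genes and the markers were named beside these. A single gene that this rule names is not reported here. The 5 list genes not found by symbol (Ogdh, Myh1, Myh2, Col1a2 and Pecam1) were not analysed here. Alternatives were 2 other scalings, voom on the recovered reads, 2 other filters, 2 other pseudocounts (1 and 20), variances estimated robustly, replicate number as a blocking factor, and each library left out. P values measure the spread between the 3 rats a group, 1 library each.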

Additional observations from a re-analysis of the deposited data

How the results depend on the processing

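The fall of Ppm1k held under all 15 alternatives, with log2 fold changes of -0.88 to -0.74 and adjusted p values of 0.00332 to 0.0459 from limma. The rise of Bckdhb kept its direction in each of them, but the count of higher members was 0 in place of 1 with no rescaling (adjusted p = 0.0753), with voom (0.0533), with no filter (0.0552) and with at least 10 reads in every library (0.0503), and it ranged between 0 and 2 when libraries were left out, the 2 being Bckdhb and Bckdk without OP replicate 2. The count of lower members was 1 in every fit. Of the cofactor genes and regulators, 2 were lower, which became 0 with voom, 0 with no filter, 1 with at least 10 reads in every library, and 0 to 2 when a library was left out. Signs changed for Bckdha (-0.28 to 0.16 with a library left out) and Mccc1 (-0.19 to 0.014), both above 0 without OP replicate 2, and for Ivd (-0.016 to 0.18), below 0 without OP replicate 1. None of these 3 genes was called in any fit by limma or voom. Over all genes, 453 were called, 370 with voom on recovered reads and 56 to 775 with a library left out (177, 775 and 260 without OP replicates 1, 2 and 3, and 56, 85 and 70 without OR replicates 1, 2 and 3). Fits without a library have fewer degrees of freedom, and the cause of these differences was not tested. With no rescaling, 465 were called, 311 of them lower, against 251 of 453.

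With the replicate number as a block, 269 genes were called, 1 member higher and 1 lower, and 1 regulator lower (Ppara, 0.0484, while Ppargc1a had 0.0554). The sample labels state no pairing of animals by replicate number. Same-numbered libraries had correlations of deviations of 0.06, 0.07 and 0.13. OP replicates 1 and 2 each correlated best with an OR heart of another number (0.08 in each case), and the remaining OP heart with the OR heart of its own number. With so few libraries and values this close, the correlations cannot decide whether animals were paired.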

Other observations

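Genes outside the lists were ranked by how closely their log2 levels followed the mean of the 10 branched-chain genes over the 6 libraries. The closest were Smarcal1 (Pearson r = 0.993), AABR07043421.1 (0.992) and Smarcc1 (0.991). With 6 libraries and 13445 genes such values are found readily, and OP replicate 2 is low in the mean of the 10 genes, so this is given as a description only.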
